A study of Caenorhabditis elegans with 4 samples.

Results

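The 601 regions described here are those that EGL-27::GFP occupied on chromosome IV of the nematode Caenorhabditis elegans, out of 3728 regions listed for the whole genome. They were chosen by chromosome alone, with no use of their score or width. The list was made by chromatin immunoprecipitation and sequencing (ChIP-seq), from 2 libraries of DNA recovered with an anti-GFP antibody and 2 libraries of input DNA, all from hermaphrodites of strain OP177 at the fed L1 stage, grown at 20 °C. Both groups of libraries carried the same genotype, an unc119(ed3) background with the transgene wgIs177, which holds egl-27 joined to TY1, EGFP and FLAG tags together with unc119 and was introduced by bombardment. OP177 is a single transgenic strain, no strain without the tag was analysed here, and the immunoprecipitation protocol in the labels speaks of embryos although the stage is given as fed L1.

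EGL-27 is a nuclear protein of the MTA family, whose members work in chromatin remodelling and deacetylase complexes. In the worm it is known for roles in embryonic patterning, cell migration and cell polarity. The autosomes of this species have gene-dense central parts flanked by more repetitive arms in which most recombination takes place. Chromosome IV is further known for its clusters of piRNA genes, which encode the small 21U-RNAs that guard the germ line against foreign sequence. In the RefSeq gene table of assembly WBcel235, IV carries 14714 of the annotated piRNA genes, or 95.8% of those on the 6 nuclear chromosomes, and 3281 protein-coding genes, or 16.4%. That assembly is not the one of the region list (WormBase WS180), so no region was set against a gene or a piRNA locus.

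Each region has a position in WS180 and the authors' PeakSeq q-value, which is small where ChIP tags most clearly exceeded scaled input tags. The list joins all 4 libraries, so no spread between replicates can be given for any value, and the read depth of a region is unknown. Intervals below are exact 95% intervals that cover counting error only. They assume independent regions, an assumption that close neighbours break. With the chromosomes as units, an exact permutation test of IV against the other 5 cannot give a p below 0.167. No difference between IV and the rest could therefore pass a test, and each place in the order of the 6 chromosomes is a description.

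EGL-27::GFP regions on IV were about as dense as on most other autosomes. IV held 34.4 regions per Mb (31.7 to 37.3) over the 17472327 bp up to its last listed base, against 37.9 per Mb (36.6 to 39.2) on the other 5 chromosomes together. It stood 4th of the 6, above V with 32.9 and II with 32.6 and below I with 36.7, X with 41.2 and III with 48.2 regions per Mb. The interval of IV contained the densities of I, II and V and lay below those of X and III. The exact permutation test over chromosomes gave p = 0.833 for density and 0.667 for the share in the middle part described next, both 0.833 after Benjamini-Hochberg adjustment over these 2 tests. Set against gene number, IV had 18.3 regions per 100 protein-coding genes, between 13.8 on V and 26.7 on X. The regions of IV covered 155835 bp, or 0.892% of its length, against 1.01% on the other 5 chromosomes, and only V, at 0.719%, was covered less.

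Along IV, divided into 3 parts of equal length, the left and middle parts held about equal numbers of listed regions and the right part fewer. The near equality did not hold in the better-scored 25% of the list, with 29.8% on the left, 43.8% in the middle and 26.4% on the right. By covered base pairs the shares were 31.8%, 41.0% and 27.2%. In the full list, the left part held 210 regions, or 34.9% of the chromosome's total (31.1% to 38.9%). The middle part held 222 regions, or 36.9% (33.1% to 40.9%). The right part held 169 regions, or 28.1% (24.6% to 31.9%). These correspond to 36.1 regions per Mb on the left, 38.1 in the middle and 29.0 on the right. Whole 1 Mb blocks held 36.2 ± 6.7 regions on the left (SD, n = 6 blocks, 27 to 43), 38.0 ± 7.6 in the middle (SD, n = 6, 24 to 45) and 28.8 ± 4.6 on the right (SD, n = 5, 23 to 34), and the ranges of all 3 parts overlapped.

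**Figure D1:**
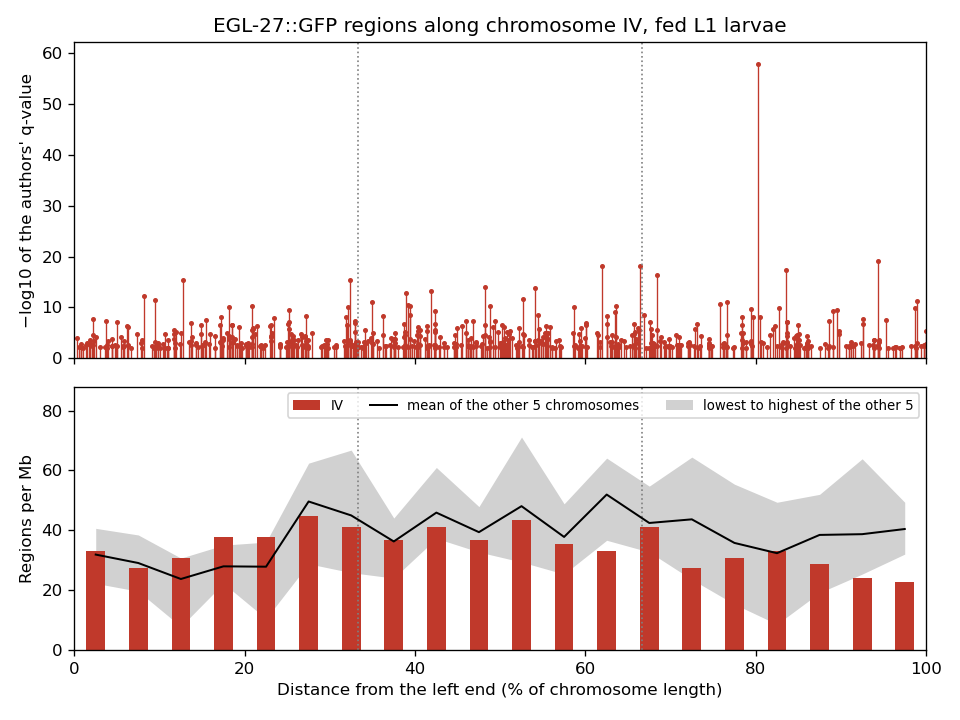
The upper panel shows each of the 601 regions of chromosome IV by the −log10 of its q-value, and the lower panel shows regions per Mb in 20 equal bins of IV (bars), with the mean (line) and the lowest to highest value (grey band) of the other 5 chromosomes; dotted lines separate the left, middle and right parts. One region near 80.3% of the length stands at 57.8 and the next highest at 19.0, and the bars decline to 22.9 regions per Mb at the right end.

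In finer steps, the densest block of 1 Mb was IV:8000001-9000000 with 45 regions. The 3 blocks of IV:3000001-6000000 held 43, 41 and 42 regions, and IV:9000001-10000000 and IV:11000001-12000000 held 43 and 42. Among whole blocks, IV:16000001-17000000 had the fewest, 23, and IV:10000001-11000000, inside the otherwise dense middle part, had 24. In 20 equal bins of the chromosome, IV was denser than each of the other 5 chromosomes in the 3 bins between 10% and 25% of its length, with 30.9, 37.8 and 37.8 regions per Mb against at most 30.7, 35.1 and 36.1 elsewhere. It was sparser than each of them in 3 bins, one between 60% and 65% of its length and both bins of the last 10%, where it had 24.0 and 22.9 regions per Mb against at least 25.4 and 32.1 elsewhere. These margins are mostly narrow beside the counts of 20 to 39 regions that a bin of IV holds. With 6 chromosomes and 20 bins, any chromosome would come first or last in some bins, so these places are a description only.

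The balance of the 3 parts on IV was nearest to that of chromosome I. The left part took 34.9% of the regions of IV, the highest left share of the 6, against 33.2% on I and 21.7% on II, the lowest. In the better-scored 25% of the list, the left share of IV came 3rd. The middle share of 36.9% was 5th, close to 37.3% on both I and III, below 42.2% on II and 42.8% on V, and above 30.7% on X. The right share of 28.1% was also 5th, between 29.5% on I and 26.8% on V, while X had 39.0% there.

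**Figure D2:**
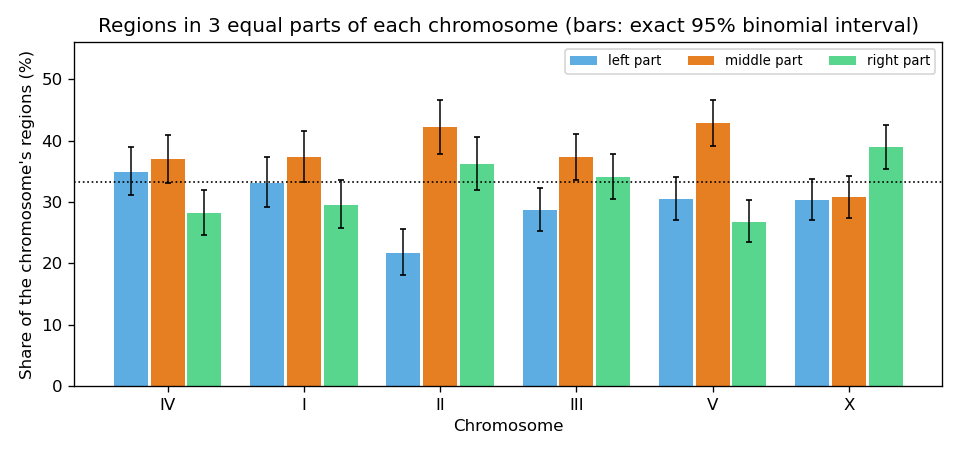
Share of each chromosome's regions in its left, middle and right part, with exact 95% binomial intervals that cover counting error only; the dotted line marks equal shares. On IV the left (34.9%) and middle (36.9%) shares lie close together above the right (28.1%), while X is highest on the right.

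Regions in the middle part of IV were also wider and better scored. They had a median width of 264.5 bp (quartiles 158 and 401), against 220.5 bp (120 and 330.5) on the left and 197 bp (81 and 336) on the right. The intervals of these medians, 225 to 293 bp in the middle, 200 to 255 bp on the left and 185 to 244 bp on the right, overlapped. The median q-value was 4.08e-04 in the middle, against 9.72e-04 on the left and 0.00145 on the right. Under 1e-05 were 57 regions (25.7%) in the middle, 41 (19.5%) on the left and 36 (21.3%) on the right. The middle part thus held 36.9% of the regions of IV and 41.0% of its covered base pairs. Width and score are not separate evidence, since more base pairs hold more tags and the score is built from tags. Over the 601 regions of IV, which share 4 libraries, −log10 q was correlated with width at a Pearson r of 0.76 and a Spearman rho of 0.72, given as a description.

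On the other autosomes, too, the median width was highest in the middle part, on I (273 bp), II (227.5 bp), III (242 bp) and V (197 bp), although on II the right part, at 225 bp, was almost level. On X the right part was the widest, with 260.5 bp against 246.5 bp in the middle. As a whole, IV had a median width of 230 bp (quartiles 119 and 354), against 216 bp (110 and 348.5) on the other 5 chromosomes, and stood 3rd after X with 248 bp and I with 240 bp.

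**Figure D3:**
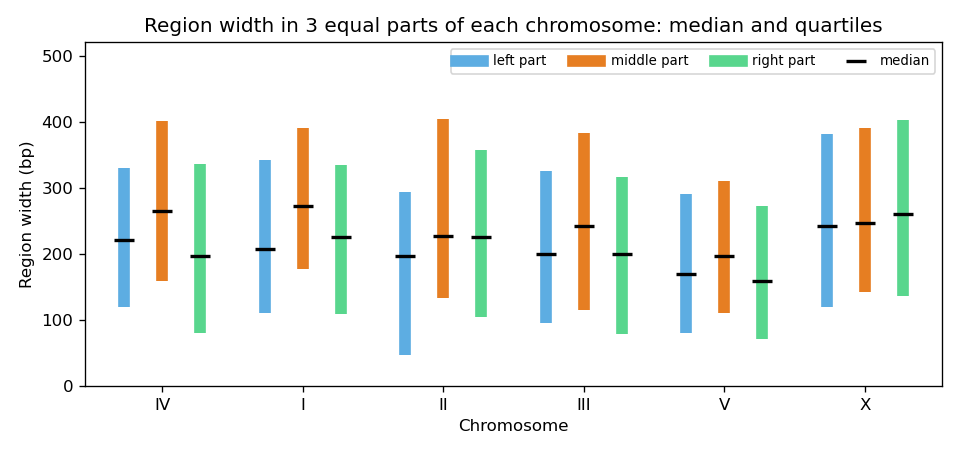
Region width in bp in the left, middle and right part of each chromosome; bars run from the lower to the upper quartile and black marks show the median. The middle part has the widest median on IV (264.5 bp) and on each other autosome, but not on X.

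At the ends of the width scale, IV had few broad regions, by small counts, and about its share of very narrow ones. There were 4 regions of 1 kb or more, 0.666% of its regions, the lowest share of the 6 chromosomes. The others ranged from 0.728% on V to 2.21% on II. These shares rest on small counts, with 5 such regions on V, 6 on III and 11 on II, and no interval was computed for them. Of the 4 regions of IV, 3 lay in the right part and 1 in the middle part. The next in width was IV:6096916-6097832 (917 bp, q = 8.80e-12). Regions narrower than 50 bp numbered 92 (15.3%), against 14.3% on the other 5 chromosomes, and 2 of them were a single base pair. They made up 18.3% of the regions in the right part, 16.2% on the left and 12.2% in the middle.

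A single region dominated the scores of IV. IV:14032598-14034591, in the right part, had q = 1.66e-58, the second smallest of the whole list, and was also the widest on the chromosome, at 1994 bp. It was a solitary region, 113034 bp from its neighbour on the left and 36064 bp from the one on the right. On the −log10 scale it stood at 57.8, and the next region of IV, IV:16491399-16492752 (1354 bp, q = 9.38e-20), stood at 19.0 and was 64th in the list. That second value was the lowest second place of any chromosome, the others lying between 24.1 on V and 49.2 on III. The step of 38.8 between first and second place was exceeded on X, where it was 44.1. Elsewhere it was 21.0 or less.

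The regions that followed on IV were close together in score. IV:10821449-10822326 (878 bp, q = 8.02e-19) and IV:11593306-11594490 (1185 bp, q = 8.21e-19) were almost equal, and both lay in the middle part. IV:14594102-14594606 (505 bp, q = 5.22e-18) and IV:11956292-11956734 (443 bp, q = 4.40e-17) lay in the right part. They were followed by IV:2219034-2219851 (818 bp, q = 3.45e-16) and IV:5657018-5657562 (545 bp, q = 4.87e-16), both in the left part. The last of the 10 were IV:8431631-8432445 (815 bp, q = 7.80e-15) and IV:9444418-9445162 (745 bp, q = 1.37e-14), both in the middle part. Of the 10 regions, 2 lay on the left, 4 in the middle and 4 on the right. Single regions made up 6 of them, and 4 had neighbours within 2 kb.

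IV therefore had few regions with extreme scores but not few with moderate ones. Under 1e-20 there was 1 region on IV (0.166%), against 53 (1.69%) on the other 5 chromosomes, which ranged from 0.873% on V to 2.47% on X. Under 1e-10 there were 27 on IV (4.49%), against 196 (6.27%), again the lowest share of the 6. Under 1e-05 the order turned round, with 134 on IV (22.3%), the highest share of the 6, against 611 (19.5%) on the others. The margin over X, at 22.1%, was small. The median q-value was 9.45e-04 on IV and 0.00101 on the others. Among the 100 regions with the smallest q-values, IV and I held 8 each and X held 29. Of all listed regions, IV held 16.1%, I 14.7% and X 19.6%. At the weak end, the largest q-value on IV was 0.00997, in the 44 bp region IV:9082048-9082091, just inside the limit of 0.01 under which all listed values lay. Of the 601 regions of IV, 22 had a q-value of 0.009 or more, a count not made for the other chromosomes.

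**Figure D4:**
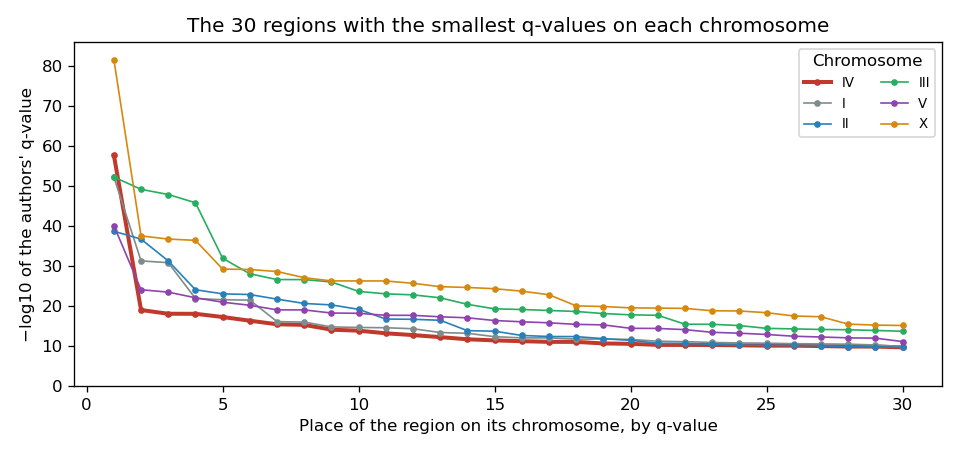
The −log10 q-value of the 30 best-scored regions of each chromosome, in order of score. IV (thick line) begins at 57.8, drops to 19.0 at the second place and reaches 13.9 at place 10, the lowest value at that place among the 6 chromosomes.

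The 27 regions under 1e-10 were spread over the whole of IV, with 7 on the left, 13 in the middle and 7 on the right. They were 362 to 1994 bp wide, with a median of 670 bp. Neighbours among them were 517838 bp apart in the median, from 29242.5 bp to 1967900 bp. Of the 27, 13 lay in groups of regions at most 2 kb apart and 14 were single. Such groups held 30.8% of all regions of IV. Among regions under 1e-10 elsewhere, such groups held 11 of 29 on I, 20 of 27 on II and 27 of 43 on III. They held 19 of 33 on V and 26 of 64 on X.

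Regions of IV had the widest typical spacing of the 6 chromosomes, a place that did not hold when the list was limited to its better-scored 50%, where IV came 2nd, or 25%, where it came 6th. The median distance between the midpoints of neighbours was 16496.5 bp (13519 to 19319.5; quartiles 3717.5 and 39930.6), against 13340.25 bp on the other 5. V, with fewer regions per Mb than IV, had 15788.25 bp, and II, with the fewest, had 15026 bp. Their values lay inside the interval of IV. As a fraction of the mean spacing of the same chromosome, the median was 0.568 on IV, again the highest, with the others from 0.490 on II to 0.548 on III. Within IV, the median was 14727 bp on the left, 16849 bp in the middle and 18049 bp on the right. Neighbours within 2 kb made up 96 of 600 pairs, or 16.0% (13.2% to 19.2%), against 17.4% on the others. The highest share was 20.7% on III.

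**Figure D5:**
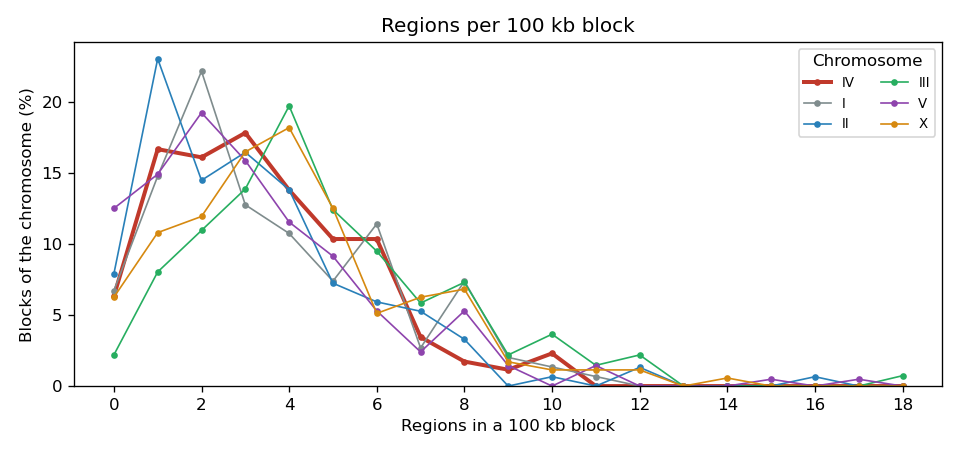
Share of the 100 kb blocks of each chromosome that held a given number of regions, with IV as the thick line. The line of IV ends at 10 regions in a block, while those of the other chromosomes go on to between 11 and 18.

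Counts per 100 kb block had a narrower range on IV than on each other chromosome. The most crowded blocks of IV held 10 regions, and there were 4 of these, IV:4400001-4500000, IV:7000001-7100000, IV:9600001-9700000 and IV:15000001-15100000. On the other chromosomes the fullest block held between 11 regions, on I, and 18, on III. Blocks with 8 or more regions made up 5.17% of the blocks of IV (9 of 174, 3 in each of the 3 parts), against 5.92% on II and 17.5% on III. Empty blocks made up 6.32% on IV, against 7.54% on the others. The variance of the block counts was 1.53 times their mean on IV, the lowest of the 6, with the others from 1.79 on X to 2.32 on V. It stayed the lowest with blocks of 50 kb, 200 kb and 1 Mb. In the better-scored 50% of the list IV stood 5th, at 1.60. When regions at most 2 kb apart were counted as one, the value was 1.01 and IV stood 4th.

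Regions of IV that lay at most 2 kb apart, edge to edge, were joined into stretches, of which there were 496. Single regions accounted for 416. The 80 longer stretches took in 185 regions (30.8%), against 32.6% on the other 5 chromosomes. The sizes stopped at 4, with 60 stretches of 2, 15 of 3 and 5 of 4 regions. I also stopped at 4, while the other chromosomes held 21 stretches of 5 or more, up to 11 regions on II. Stretches of 4 numbered 1 on I, 2 on III, 3 on V, 4 on II and 8 on X. By its largest stretch IV stood 5th, level with I, but this place depended on the joining distance. With gaps of up to 1 kb the largest stretch of IV held 4 regions and IV stood 3rd. With gaps of up to 5 kb the largest stretch of IV held 7 regions and IV stood 4th. Stretches of 2 or more on IV spanned 610 to 4948 bp, with a median of 1821 bp, and regions covered a median of 31.7% of that span. In the middle part 36.5% of regions belonged to such a stretch, against 27.6% on the left and 27.2% on the right. The middle share was also the highest of the 3 parts on I (33.7%), II (34.3%), V (34.7%) and X (35.7%). On III it was 38.7%, below 39.4% on the right.

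The 5 stretches of 4 regions differed in strength. The widest, IV:14609626-14614573, spanned 4948 bp, 56.7% of it covered, with regions of 344, 731, 1070 and 660 bp and a smallest q of 5.75e-08. Its 1070 bp region, IV:14612125-14613194, was the 4th widest on the chromosome but 59th by q-value. IV:4747520-4750203 had the smallest q-value among these stretches, 4.98e-09, in a 366 bp region at its right end, with regions of 34, 24 and 257 bp beside it. IV:3231706-3234363 held regions of 268 and 335 bp with almost equal q-values of 2.33e-07 and 2.70e-07, followed by weaker ones of 255 and 45 bp. IV:6555093-6556919 was the most compact, at 1827 bp, with a smallest q of 1.65e-04. IV:15016996-15021144 was the weakest, with q-values from 0.00495 to 0.00994 and regions of 211, 6, 8 and 232 bp that covered 11.0% of 4149 bp. None of the 10 best-scored regions of IV lay in a stretch of 4, but these 5 stretches held so few of the 601 regions that this says little.

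Regions in stretches scored better than single ones, on IV as elsewhere. On IV, regions in stretches had a median width of 268 bp and a median q of 3.75e-04, against 218 bp and 0.00113 for single regions. The share under 1e-05 was 30.3% in stretches and 18.8% among single regions. On the other 5 chromosomes the share in stretches was between 24.5% and 29.2%, against 12.8% to 20.5% for single regions. A stretch is defined by the edges of its regions, so width enters its definition.

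Empty intervals were more numerous towards the ends of IV. There were 30 gaps of 100 kb or more without a region, 11 on the left, 5 in the middle and 14 on the right. Their lengths ranged from 102505 to 239539 bp, with a median of 130541 bp, and together they made up 24.0% of the chromosome, against 25.3% on the other 5. The count corresponds to 17.2 such gaps per 10 Mb, between 9.44 on III and 22.0 on V. The longest gap of IV was shorter than those of I (242330 bp), II (288017 bp) and V (508778 bp). On the other autosomes, too, the middle part had the fewest gaps of 100 kb or more. Left, middle and right counts were 10, 8 and 11 on I and 12, 4 and 10 on II. They were 6, 3 and 4 on III and 17, 9 and 20 on V. On X they were 9, 10 and 10.

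Although the middle part had the fewest empty intervals, it held the longest ones. IV:9982542-10222080, at 239539 bp, and IV:10511798-10714594, at 202797 bp, lay close together. Between them were 15 regions in 289717 bp, so the 732053 bp from the start of the first gap to the end of the second held 20.5 regions per Mb, against 38.1 in the middle part as a whole. Each of these 2 gaps had a region with a q-value of about 0.006 on its left side and one near 1e-05 on its right side. The next in length were IV:15104205-15291415 (187211 bp) and IV:16986897-17166256 (179360 bp) in the right part, and IV:1420467-1595862 (175396 bp) in the left part. The last of these began beside a strong region, with q = 5.66e-13. A gap in the list says that no region passed the threshold there, and whether reads could be placed in these gaps was not tested.

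The regions of IV began late on the left, and how far the last region lay from the right end was not measured. The first region of IV, IV:51269-51608 (q = 1.01e-04), began further from the first base than that of any other chromosome, where the first regions began between 3555 bp on I and 25565 bp on III. The last, IV:17472085-17472327 (243 bp, q = 0.00229), set the length used here, and the sequence beyond it was not analysed here. The most isolated region of IV, singled out after its values were seen, was IV:15291416-15291421, a region of 6 bp with q = 0.00994, which stood 187211 bp from its left and 107250 bp from its right neighbour.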

How the data were processed

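Regions were called with PeakSeq on WormBase WS180, per the file headers, from 2 ChIP and 2 input libraries together. The authors deposited, for each region, its first and last base and a q-value, a p-value for ChIP over input adjusted for multiple testing. Nothing used here states the aligner, the read numbers, the input scaling or the caller settings, so depth per sample is unknown. PeakSeq's threshold and merging rule shape width, spacing and gaps. The smallest gap on IV was 202 bp.

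From these positions, width, midpoint distances, gaps, stretches (gaps of up to 2 kb), the left, middle and right of 3 equal parts of the span up to the last listed base, and counts per block were computed with Python 3.11.15, numpy 2.4.6, scipy 1.17.1 and pandas 2.3.3. A pair of neighbours belongs to the part that holds its centre. Intervals are exact Poisson (density), exact binomial (shares) or order-statistic (medians) at 95%. The exact test over chromosomes compared IV with the mean of the other 5, two-sided. The functions were tested on simulated lists. No region was left out. Regions named are the 10 with the smallest q-values, the 5 widest, stretches of 4 or more, the 5 longest gaps, the first and last region and the largest q-value; the most isolated region and the blocks given by position were singled out after their values were seen. The members and measures were chosen with earlier results of these data known. The gene table of WBcel235 gave gene numbers per chromosome only.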

Additional observations from a re-analysis of the deposited data

How the results depend on the processing

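Of 60 values recomputed, 31 stayed within the counting interval or within 1.5 times (counts and variance ratios), and 29 moved. Changes of direction were not scored. No paired analysis was possible because all libraries were combined before regions were listed, so neither could single replicates be left out. Many moves follow from construction. The better-scored 50% and 25% of the list left 314 and 178 regions on IV, or 18.0 and 10.2 per Mb, with median widths of 332 and 401 bp and median spacings of 31994.5 and 47761.5 bp. By width IV then stood 4th and 6th, and by spacing 2nd and 6th, so its first place in spacing did not hold among better-scored regions. With the better-scored 50%, 12.8% of neighbours lay within 2 kb, 79 regions lay in stretches and 50 gaps reached 100 kb. The middle share was 41.7% in the better-scored 50% and 43.8% in the better-scored 25%, and 41.0% by covered base pairs. The right share was 24.2% in the better-scored 50%, the lowest of the 6, and the left share 29.8% in the better-scored 25%, then 3rd. Without regions under 50 bp, density was 29.1 per Mb and median width 269 bp. With the outer 25% and the middle 50% as parts, the shares were 24.3%, 55.4% and 20.3%. Within 1 kb and 5 kb lay 5.5% and 30% of neighbours, and joining over those gaps put 99 and 291 regions in stretches. Gaps of 150 kb or more numbered 10, and of 200 kb or more 2. The variance ratio of block counts moved to 1.01 with stretches counted once, and the largest stretch to 7 with gaps of up to 5 kb. These last 2 measures and their alternatives were chosen after the data were seen. Depth is unknown, which leaves weak regions the least certain.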

Other observations

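The q-values also carry the size of each enrichment, if each is read as a lower binomial tail (share 0.5), multiplied by how many regions were tested and divided by the place in the list. With 6924 regions tested, 100% of 101 levels of q-value times place that at least 8 regions shared equalled such a tail within a relative tolerance of 1e-08, and the best other number from 3728 to 20000 matched 0.990%. On this reading, chosen after the data were seen, 595 of the 601 regions of IV had a single pair of ChIP and scaled input tags, which are inferred and not the authors' own counts. Median tags were 44 in ChIP (quartiles 28 and 65) and 15 in input (8 and 23), and the median ratio was 3.06 (2.57 and 3.75), between the medians of 2.84 on X and 3.2 on V. Ratios were under 2 in 14 regions of IV and 5 or more in 48. The middle part had more tags of both kinds, with medians of 49 ChIP and 17 input tags and the lowest median ratio, 2.91. The left part had 43 and 15 tags and a ratio of 3.20, and the right part 37 and 13 tags and a ratio of 3.25. Since every listed region passed the same threshold, regions of few tags needed a high ratio to be listed. Whether this bears on the difference between the 3 parts was not tested.

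On the same reading, the strongest region, IV:14032598-14034591, had 4.47 times as many ChIP tags, 519, as input tags, 116 (exact 95% interval of the ratio 3.65 to 5.52, counting error only). Some narrower regions had higher ratios, as at IV:11956292-11956734, with 111 and 16 tags and a ratio of 6.94 (4.09 to 12.6), and IV:14594102-14594606, with 138 and 26 tags and a ratio of 5.31 (3.47 to 8.41). These intervals overlapped. The broad but weaker IV:14612125-14613194, in the widest stretch of 4, had 150 and 65 tags, a ratio of 2.31 (1.71 to 3.14), below the interval of the strongest region. The first region of the chromosome, IV:51269-51608, had 71 and 29 tags, a ratio of 2.45 (1.57 to 3.91).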
